A study of Mus musculus with 2 samples.

Results

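The costimulatory and coinhibitory ligands studied here are 8 genes, *Cd80*, *Cd86*, *Cd274*, *Pdcd1lg2*, *Cd40*, *Cd83*, *Icosl* and *Tnfsf9*, taken by name from the 17232 genes of the expression table. All 8 were in the table. They were followed in single-cell RNA sequencing (scRNAseq) of immune cells from B16-OVA tumors, grown from mouse melanoma cells that make ovalbumin as a model antigen, in *Maoa* WT and *Maoa* KO mice. The KO mice carry a hypomorphic allele of *Maoa* (129S-*Maoa*tm1Shih) backcrossed to C57BL/6J, which the study calls a knockout, and the WT mice are wild type for it. Unless stated otherwise, the study used female mice of 8 to 12 weeks. All mice received the same tumor line, and live CD45.2+ cells were sorted at day 14 from 10 combined tumors per genotype. About 10000 cells were loaded per genotype, and 1 library was made from each. Neither genotype has a replicate, so no test between them was possible, and effects of genotype, pool and library cannot be told apart.

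These genes encode proteins with which antigen-presenting cells instruct T cells. CD80 and CD86 bind CD28, which gives T cells a second signal beside the antigen receptor, and CTLA-4, which competes for them. PD-L1 (*Cd274*) and PD-L2 (*Pdcd1lg2*) bind PD-1 (*Pdcd1*) and dampen T cell responses, ICOS ligand (*Icosl*) binds ICOS, and 4-1BB ligand (*Tnfsf9*) binds 4-1BB (*Tnfrsf9*). *Cd40* encodes a receptor rather than a ligand. It receives CD40 ligand from T helper cells, signals through NF-κB and raises the costimulators on dendritic cells (DCs). *Cd83* encodes a surface protein of mature DCs that keeps MHC class II and CD86 at the surface by opposing the ubiquitin ligase MARCH1. Conventional DCs that mature in a tumor turn on *Ccr7*, which guides them to lymph nodes, together with many of these genes.

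The libraries held 2392 (WT) and 2630 (KO) cells with 28801253 and 23702018 unique molecular identifiers (UMIs, which count RNA molecules), at medians of 9887.5 and 6945.5 UMIs per cell. *Maoa* itself gave 7 UMIs in the library labelled WT and 15 in the library labelled KO, 0.243 and 0.633 CPM (the gene's UMIs divided by all UMIs of the same cells and scaled to the usual common total). The intervals (0.0977 to 0.501 and 0.354 to 1.04) overlapped, and whether the hypomorphic allele still gives transcript in these cells was not tested, so *Maoa* does not bear out the labels; "WT library" and "KO library" mean the libraries so labelled throughout. There were 13 barcode sequences that occurred in both libraries. Cells were clustered without the 8 genes and without the genes of the pathway lists below, and the clusters were named from marker genes. The 3 DC classes were mature DCs (25 WT and 39 KO cells, led by *Ccl22*, *Fscn1* and *Ccr7*), Cd209a DCs (69 and 161 cells) and cDC1s (19 and 60 cells, led by *Xcr1* and *Gcsam*). Plasmacytoid DCs (pDCs), classical and nonclassical monocytes, C1q macrophages, NK cells, CD8 T cells and regulatory T cells were also named, and 7 and 24 B cells were too few to compare. A pair of myeloid clusters that the markers did not name are called by their leading genes, the Rsad2 Cxcl10 cluster (155 and 63 cells), led by interferon-induced genes, and the Lpl Ccl12 cluster (153 and 172 cells). Another 105 WT and 111 KO cells lay in clusters that mixed T cell with DC or myeloid genes, and these were used in no class.

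Mature DCs had the highest level of 6 of the 8 genes in both libraries among the 12 groups compared, namely *Cd80*, *Pdcd1lg2*, *Cd40*, *Cd83*, *Icosl* and *Tnfsf9*. Levels are given in CPM, with a 95% exact Poisson interval that covers counting error only. For *Cd80*, *Cd40* and *Cd83* the interval of mature DCs lay apart from those of every other group in both libraries. For *Pdcd1lg2* it overlapped those of NK cells in both libraries and of regulatory T cells and the Rsad2 Cxcl10 cluster in the WT library. For *Tnfsf9* it overlapped those of Cd209a DCs and both unnamed myeloid clusters in the WT library and of no group in the KO library. For *Icosl* it overlapped that of Cd209a DCs in both libraries and that of cDC1s in the WT library. *Cd80*, a ligand of CD28 and CTLA-4, was at 60.4 (37.4 to 92.3) in the WT library and 59.6 (39.6 to 86.2) in the KO library. *Cd86* was at 219 (172 to 274) and 204 (166 to 250). *Cd40* was at 345 (286 to 413) and 283 (237 to 336). The intervals of the libraries overlapped for all 3 genes. *Cd83* was at 621 (541 to 710) in the WT library and 845 (764 to 933) in the KO library, and every one of the 25 and 39 mature DCs held at least 1 UMI of it. *Cd274* was at 104 (72.5 to 143) and 145 (112 to 184). *Pdcd1lg2* was at 71.9 (46.5 to 106) and 95.8 (69.9 to 128). Both PD-1 ligands were thus present beside the costimulators in this class. *Icosl* was at 71.9 (46.5 to 106) and 83.0 (59.0 to 114). *Tnfsf9* was at 46.0 (26.3 to 74.7) and 95.8 (69.9 to 128).

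**Figure D1:**
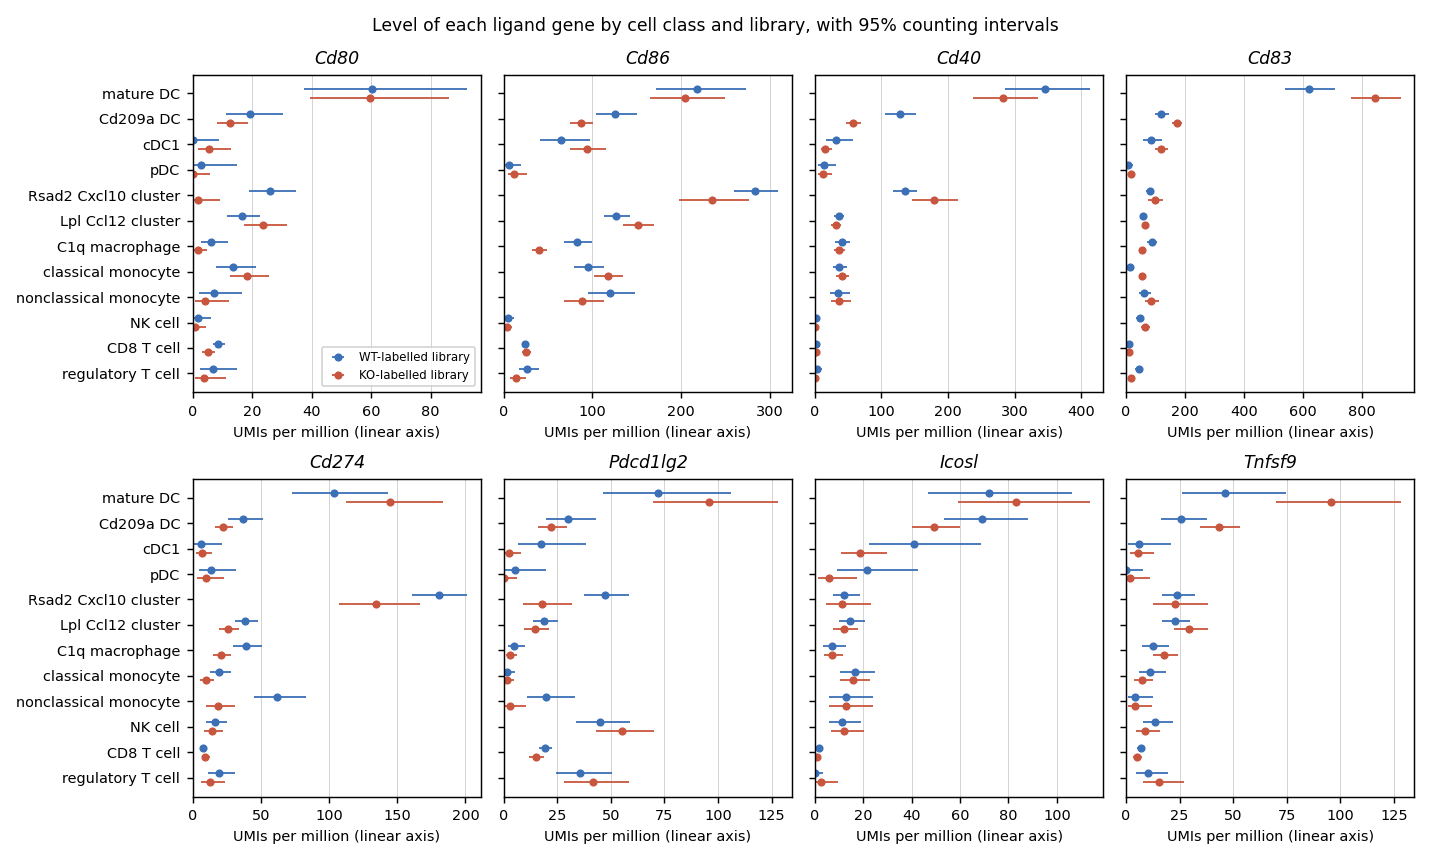
Level of each gene (x axis, CPM, linear) in 12 cell groups (y axis), for the library labelled WT (blue) and the library labelled KO (red). Points are sums over the cells of a group and bars are 95% counting intervals; mature DCs lie highest in both libraries for 6 genes, apart from every other group for *Cd80*, *Cd40* and *Cd83* and level with Cd209a DCs for *Icosl* in the WT library, while *Cd86* and, in the WT library, *Cd274* are highest in the Rsad2 Cxcl10 cluster.

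*Cd86* was highest in the Rsad2 Cxcl10 cluster, at 284 (WT) and 235 (KO), with mature DCs next at 219 and 204, and the intervals of these neighbours overlapped in both libraries. *Cd274* was highest in the same cluster in the WT library, at 180 (161 to 201), followed by mature DCs at 104, and their intervals did not overlap. In the KO library mature DCs (145) were followed by the Rsad2 Cxcl10 cluster (134), and their intervals overlapped. *Icosl* in Cd209a DCs was at 69.0 (53.3 to 88.0) in the WT library, close to the 71.9 of mature DCs. In the KO library it was at 49.2 (40.0 to 60.0), against 83.0 (59.0 to 114) in mature DCs, and these intervals only just overlapped. It stayed at or below 16.4 in every monocyte and macrophage group. cDC1s had *Icosl* at 41.0 and 18.7 and pDCs at 21.6 and 5.94.

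The levels could be put against all genes. Against Cd209a DCs, 5 of 8 genes (*Cd80*, *Cd274*, *Pdcd1lg2*, *Cd40* and *Cd83*) were at least 2-fold higher in mature DCs in both libraries, against 6.6% of 5649 genes with at least 50 UMIs. The median log2 ratio of the 8 genes, averaged over the libraries, was 1.78, beside -0.19 for all genes tested. *Cd80* had 43 UMIs in Cd209a DCs and reached the minimum of 50 only with those of mature DCs. cDC1s held 0 *Cd80* UMIs in the WT library, which allows up to 8.78 CPM, and 5.50 CPM in the KO library. Because the clusters were formed from other genes of the same cells, this count describes the class and does not test it. Placing cells by marker score instead of clusters left 3 genes.

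The share of cells with a UMI was set beside that in NK cells. *Cd40* was detected in 84% (WT) and 76.9% (KO) of mature DCs, at median depths of 13419 and 10524 UMIs. NK cells, which should lack *Cd40*, held it in 0.526% and 0.375% of cells at median depths of 4878.5 and 3983. With every cell thinned to 3700 UMIs, the mature DC shares were 52% and 51.3% and the NK cell shares 0% (0 of 178 cells, exact upper bound 2.05%) and 0.617%. At that depth *Cd86* was in 52% and 46.2% of mature DCs and in 2.81% and 0.617% of NK cells. Thinning removed no mature DC and left out 12 WT and 105 KO NK cells. For *Icosl* the shares of mature DCs (32% and 35.9%) were below those of Cd209a DCs (58.0% and 41.0%), against the order of the levels. Thinned, they were 12% and 25.6% in mature DCs and 30.4% and 15% in Cd209a DCs, so no order of this pair is read from the shares. In cDC1s the *Icosl* shares were 42.1% and 23.3%, and 10.5% and 11.7% thinned.

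Mature DCs carried several of these genes in the same cell. With every DC thinned to 8200 UMIs, the median mature DC held UMIs of 4 of the 8 genes in both libraries, the median Cd209a DC held 2 and the median cDC1 held 1. At least 4 genes were detected in 75% of WT mature DCs (18 of 24, exact Clopper-Pearson interval 53.3% to 90.2%) and in 64.5% of KO mature DCs (20 of 31, 45.4% to 80.8%). The shares were 25.4% and 17.3% in Cd209a DCs and 5.26% and 3.33% in cDC1s. *Cd80* and *Cd274*, whose proteins can also bind each other on 1 cell, were detected together in 6 of 24 and 7 of 31 mature DCs. Only 2 of 67 and 2 of 139 Cd209a DCs and no cDC1 (0 of 19 and 0 of 60, with exact upper bounds of 17.6% and 5.96%) had both. In 12 of 24 and 13 of 31 mature DCs *Cd86* and *Cd274* were found together.

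**Figure D2:**
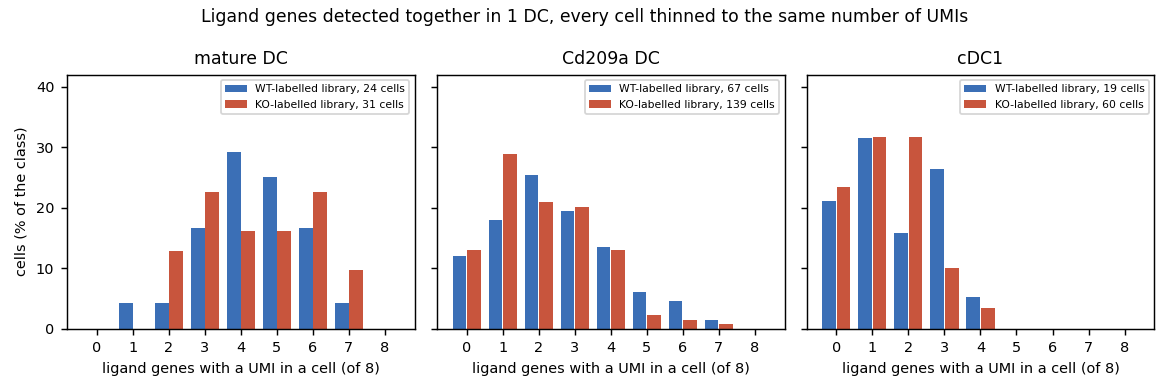
Share of cells (y axis, percent of the class) by the number of the 8 genes with at least 1 UMI (x axis) in mature DCs, Cd209a DCs and cDC1s, for the library labelled WT (blue) and the library labelled KO (red). Every cell was thinned to 8200 UMIs; the median is 4 genes in mature DCs, 2 in Cd209a DCs and 1 in cDC1s in both libraries.

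The class also held UMIs of T cell genes. All 10 T cell markers in the table were detected in mature DCs, at a summed level of 595 (WT) and 473 (KO) CPM, against 245 and 168 in Cd209a DCs. Cells with T cell and myeloid UMIs together made up 32% of WT and 20.5% of KO mature DCs. Without them, *Cd83* was at 804 and 947, *Cd86* at 249 and 241 and *Pdcd1lg2* at 76.8 and 109 CPM, none lower than with them, while *Cd274* was at 85.9 and 158 and *Tnfsf9* at 40.7 and 112. *Pdcd1*, the PD-1 receptor of activated T cells, was at 57.5 and 61.7 in mature DCs, and the part of T cell RNA in it was not tested.

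CD40 and NF-κB signalling was followed as a list of genes. Of 13 genes of the list with enough UMIs, 7 were at least 2-fold higher in mature DCs than in Cd209a DCs in both libraries, beside 6.6% of all genes tested, and of the 7 *Birc2*, with 48 UMIs in Cd209a DCs, reached the minimum only with those of mature DCs. *Relb*, the NF-κB subunit of the noncanonical pathway, was at 615 (WT) and 496 (KO) CPM in mature DCs, against 45.7 and 67.8 in Cd209a DCs. *Birc2*, a ubiquitin ligase of the CD40 receptor complex, was at 207 and 162, against 21.2 and 14.1. *Traf1*, an adaptor of TNF receptors, was at 667 and 705, against 204 and 144. Of the cytokines of activated DCs, *Il12b*, the p40 subunit of IL-12 and IL-23, was at 135 and 189, with 0 UMIs in Cd209a DCs of both libraries, which allows up to 3.19 and 1.51 CPM. The list of interferon-γ signalling toward *Cd274* was mixed, with *Jak2* higher than in Cd209a DCs and *Irf2* and *Socs3* lower, of 9 genes. *March1*, whose product removes CD86 and MHC class II from the surface, ran the other way, at 5.75 CPM in WT mature DCs and with 0 UMIs in KO mature DCs, which allows up to 6.39 CPM, against 38.2 and 43.7 in Cd209a DCs. Other ligands of the B7 and nectin families were split, with *Pvr* higher in mature DCs and *Vsir* (VISTA) and *Lgals9* (galectin-9) lower. *Nectin2* is listed under its older symbol *Pvrl2*, and *Vtcn1*, *Btn2a2* and *Hhla2* were not among the genes of the expression table.

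The promoters of *Pdcd1lg2*, *Icosl*, *Cd80* and *Cd274*, the 4 members found in the promoter table, are shown because both ligands of PD-1 and costimulatory ligands were high in the class in which the NF-κB genes were high. The sequences are RefSeq windows on GRCm38.p6, from 250 bases before to 50 bases after the annotated start, on the plus strand and 5′ to 3′, with κB elements in capitals. *Pdcd1lg2* is at chr19:29410669-29410968, *Icosl* at chr10:78069118-78069417, *Cd80* at chr16:38458683-38458982 and *Cd274* at chr19:29367188-29367487.
Pdcd1lg2: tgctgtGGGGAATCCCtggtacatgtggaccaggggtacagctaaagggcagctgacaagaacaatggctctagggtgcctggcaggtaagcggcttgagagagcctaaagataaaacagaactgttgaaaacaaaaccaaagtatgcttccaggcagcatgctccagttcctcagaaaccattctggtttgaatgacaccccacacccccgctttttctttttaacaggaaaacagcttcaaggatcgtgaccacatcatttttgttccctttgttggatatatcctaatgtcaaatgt
Icosl: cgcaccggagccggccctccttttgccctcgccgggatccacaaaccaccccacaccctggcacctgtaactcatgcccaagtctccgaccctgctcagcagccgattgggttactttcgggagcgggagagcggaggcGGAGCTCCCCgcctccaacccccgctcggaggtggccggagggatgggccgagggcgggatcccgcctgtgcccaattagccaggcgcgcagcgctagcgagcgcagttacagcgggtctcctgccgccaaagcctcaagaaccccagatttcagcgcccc
Cd80: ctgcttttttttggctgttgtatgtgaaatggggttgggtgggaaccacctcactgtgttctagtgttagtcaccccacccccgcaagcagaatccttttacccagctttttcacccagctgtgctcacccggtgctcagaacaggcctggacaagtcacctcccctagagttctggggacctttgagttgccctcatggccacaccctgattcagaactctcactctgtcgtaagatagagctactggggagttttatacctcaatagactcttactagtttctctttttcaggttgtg
Cd274: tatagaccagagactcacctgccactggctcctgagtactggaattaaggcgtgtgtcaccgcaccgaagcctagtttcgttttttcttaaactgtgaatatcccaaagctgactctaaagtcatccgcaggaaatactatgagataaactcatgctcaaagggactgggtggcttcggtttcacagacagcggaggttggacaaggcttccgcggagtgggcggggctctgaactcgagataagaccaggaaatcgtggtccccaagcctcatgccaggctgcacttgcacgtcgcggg
A κB element was matched once in the *Pdcd1lg2* window, where the same letters match on both strands, and once in the *Icosl* window on the minus strand. Such a match was found in 8.46% of 32851 promoters of the same length. The interferon-γ-activated site TTCNNNGAA (8.3% of promoters) and the interferon response element GAAANNGAAA (3.44%) were searched on both strands too and matched none of the 4 windows, and a κB element was found in neither the *Cd274* nor the *Cd80* window. These matches are letters in a window and not measured binding. The *Cd80* window lies inside the gene as GENCODE annotates it, downstream of that start, so its lack of a match does not cover that start.

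By the GENCODE M21 annotation of GRCm38, *Cd274* (chr19:29367455-29388095) and *Pdcd1lg2* (chr19:29410919-29471161) are neighbours on the plus strand, and each overlaps an annotated antisense gene. *Cd80* (chr16:38455561-38496335, plus strand) and *Cd86* (chr16:36603869-36666081, minus strand) share a chromosome. *Cd40* is at chr2:165055627-165072948, *Cd83* at chr13:43784775-43803132, *Icosl* at chr10:78069302-78083913 and *Tnfsf9* at chr17:57105325-57107757, all on the plus strand. A long noncoding gene overlaps *Tnfsf9* on the minus strand. In these 3 pairs the overlapping gene lies on the opposite strand from the member. Use of strand in the counting is not given in the sources used here, and the part of opposite-strand reads in the levels was not tested.

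Cd209a DCs fell into 3 sub-clusters. A sub-cluster of 35 WT and 22 KO cells was led by *Ifitm1*, *Ffar2*, *Bex6* and *H2-DMb2*, which were also among the 10 leading genes of the next. It is called the Cxcl9 Ifit3b sub-cluster here, after interferon-induced genes lower in its 10 leading genes that the other sub-clusters lacked there, a name chosen after the values were seen. The sub-cluster led by *Cd209a* and *Mgl2* had 25 and 100 cells, and that led by *Cd209d* and *Ngfr* had 9 and 39. *Cd40* was at 209 (171 to 254) in WT and 191 (143 to 249) in KO cells of the Cxcl9 Ifit3b sub-cluster. It was at 30.7 (15.3 to 54.9) and 36.4 (26.8 to 48.3) in the Cd209a Mgl2 sub-cluster. The sub-clusters were thus apart in both libraries and the libraries were not apart within either. *Cd86* showed the same order, at 181 and 169 against 78.1 and 72.8, and so did *Cd274*, at 61.0 and 63.6 against 14 and 18.2. *Pdcd1lg2* was at 44.8 and 45.9 in the Cxcl9 Ifit3b sub-cluster, against 14 and 22.8. *Icosl* did not follow this order, at 75.3 (WT) and 35.3 (KO) in the Cxcl9 Ifit3b sub-cluster and 61.4 and 50.8 in the Cd209a Mgl2 sub-cluster.

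**Figure D3:**
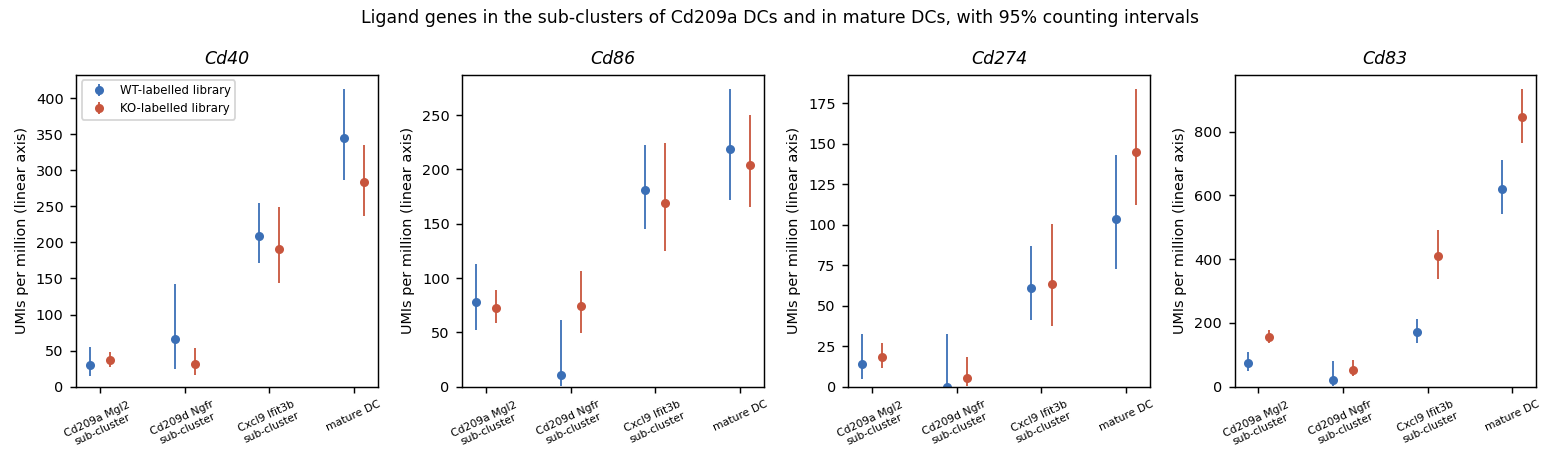
Level (y axis, CPM, linear) of *Cd40*, *Cd86*, *Cd274* and *Cd83* in the 3 sub-clusters of Cd209a DCs and in mature DCs (x axis), for the library labelled WT (blue) and the library labelled KO (red), with 95% counting intervals. *Cd40*, *Cd86* and *Cd274* are higher in the Cxcl9 Ifit3b sub-cluster than in the Cd209a Mgl2 sub-cluster in both libraries, while *Cd83* also differs between the libraries.

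In the Rsad2 Cxcl10 myeloid cluster, led by interferon-induced genes, *Cd274* was at 180 and 134, against 38.6 and 25.8 in the Lpl Ccl12 cluster. *Cd40* was at 135 and 178 there, against 35.5 and 31.0. Among CD8 T cells, the cluster led by *Ifit1* and *Ifit3* (46 and 49 cells) had *Cd274* at 25.9 (11.2 to 51.0) and 45.3 (21.7 to 83.4), from 8 and 10 UMIs. The other 4 CD8 T cell clusters had between 0 and 10.1, and in each library the interval of the Ifit1 Ifit3 cluster overlapped that of at least 1 of them.

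C1q macrophages, which make complement C1q, had *Cd86* at 82.7 (WT) and 39.7 (KO), *Cd274* at 39.2 and 20.8 and *Icosl* at 7.01 and 6.92. Classical monocytes held little of either PD-1 ligand, with *Cd274* at 19.4 and 9.63 and *Pdcd1lg2* at 1.49 and 1.70, from 2 and 3 UMIs.

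*Pdcd1lg2* had a pattern of its own among lymphoid cells. It was at 45.1 (33.8 to 59.0) in WT and 55.3 (43.0 to 70.1) in KO NK cells, from 53 and 68 UMIs. In regulatory T cells it was at 35.5 (24.1 to 50.4) and 41.4 (28.3 to 58.5), and in CD8 T cells at 19.2 and 14.9. pDCs had 2 and 0 UMIs, the latter allowing up to 5.94 CPM, and classical monocytes 2 and 3, so the gene was not at a like level in every class. It was detected in 19.5% of NK cells of both libraries, against 1.57% and 1.38% of classical monocytes, which were deeper (medians of 8689 and 7711 UMIs). Thinned to 3700 UMIs, the shares were 12.9% and 17.3% in NK cells and 0.787% and 0.922% in classical monocytes. The 13 mature DC markers, summed, were at 186 and 190 CPM in NK cells. Leaving out cells with T cell and myeloid UMIs removed 2 WT and 0 KO NK cells, and the levels were then 46.5 and 55.3. That flag needs CD3 UMIs, so it does not mark an NK cell joined to a DC or myeloid cell without T cell RNA. The part of such cells in the NK cell levels was not tested. *Cd80*, *Cd86* and *Cd40* stayed at or below 5.10 in NK cells. *Cd83* was at 46.8 and 64.3 in NK cells but in 8.95% and 6.37% of cells, with 55 and 79 UMIs in all.

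CD8 T cells were spread over their clusters differently in the libraries, with 255 WT and 118 KO cells in the cluster led by *Cxcr6* and *Lag3*, 86 and 274 in that led by *Dapl1* and *Tcf7* and 177 and 63 in that led by *Hist1h2ap* and *Cenpf*. *Ctla4* was at 507 (WT) and 428 (KO) CPM in regulatory T cells and 56.3 and 37.8 in CD8 T cells. *Icos* was at 310 and 242 in regulatory T cells and 36.0 and 30.7 in CD8 T cells. *Cd28* was at 241 (WT) and 167 (KO) in regulatory T cells and 122 and 120 in CD8 T cells. *Pdcd1* was at 211 and 245 in regulatory T cells and, in CD8 T cells, at 408 (394 to 423) in the WT library and 253 (239 to 268) in the KO library. Within the Cxcr6 Lag3 cluster *Pdcd1* was at 482 (457 to 507) and 452 (415 to 492), and within the Dapl1 Tcf7 cluster at 142 and 36.8. The Hist1h2ap Cenpf cluster had it at 407 (385 to 430) and 324 (291 to 359). *Tnfrsf9* was at 890 and 848 in regulatory T cells, at 515 and 301 in CD8 T cells and at 475 and 278 in NK cells. Within the Cxcr6 Lag3 cluster *Tnfrsf9* was at 736 and 572, and within the Hist1h2ap Cenpf cluster at 449 and 474. The Dapl1 Tcf7 cluster had it at 321 (284 to 362) and 51.0 (40.4 to 63.6). Mature DCs held *Tnfrsf9* as well, at 302 and 207, and the part of T cell RNA in it was not tested. *Cd40lg* reached at most 2.59 in mature DCs, NK cells, CD8 T cells and regulatory T cells, and it led a T cell cluster with *Cd4* that the markers did not name. *Rgmb*, a second partner of PD-L2, was at most 8.63 in these classes.

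Between the libraries, ratios were formed for each gene and class with at least 50 UMIs over both, as the log2 of KO over WT levels with 0.5 UMIs added. Of 40 such pairs in 9 classes, 2 were at least 2-fold higher and 4 at least 2-fold lower in the KO library. These were 1 of 7 genes in mature DCs (background of all genes past 2-fold in either direction 3.9%), 1 of 7 in Cd209a DCs (4.08%), 1 of 5 in classical monocytes (5.14%), 1 of 4 in nonclassical monocytes (3.73%), 1 of 5 in C1q macrophages (2.56%) and 1 of 2 in regulatory T cells (2%). None of 2 genes passed in cDC1s (3.94%), of 2 in NK cells (2.84%) or of 6 in CD8 T cells (3.8%). In the unnamed clusters, 1 of 6 passed in the Rsad2 Cxcl10 cluster (5.18%) and 0 of 8 in the Lpl Ccl12 cluster (2.61%). With 1 or 0 genes past 2-fold in each class, these counts say nothing about the 8 genes as a whole.

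**Figure D4:**
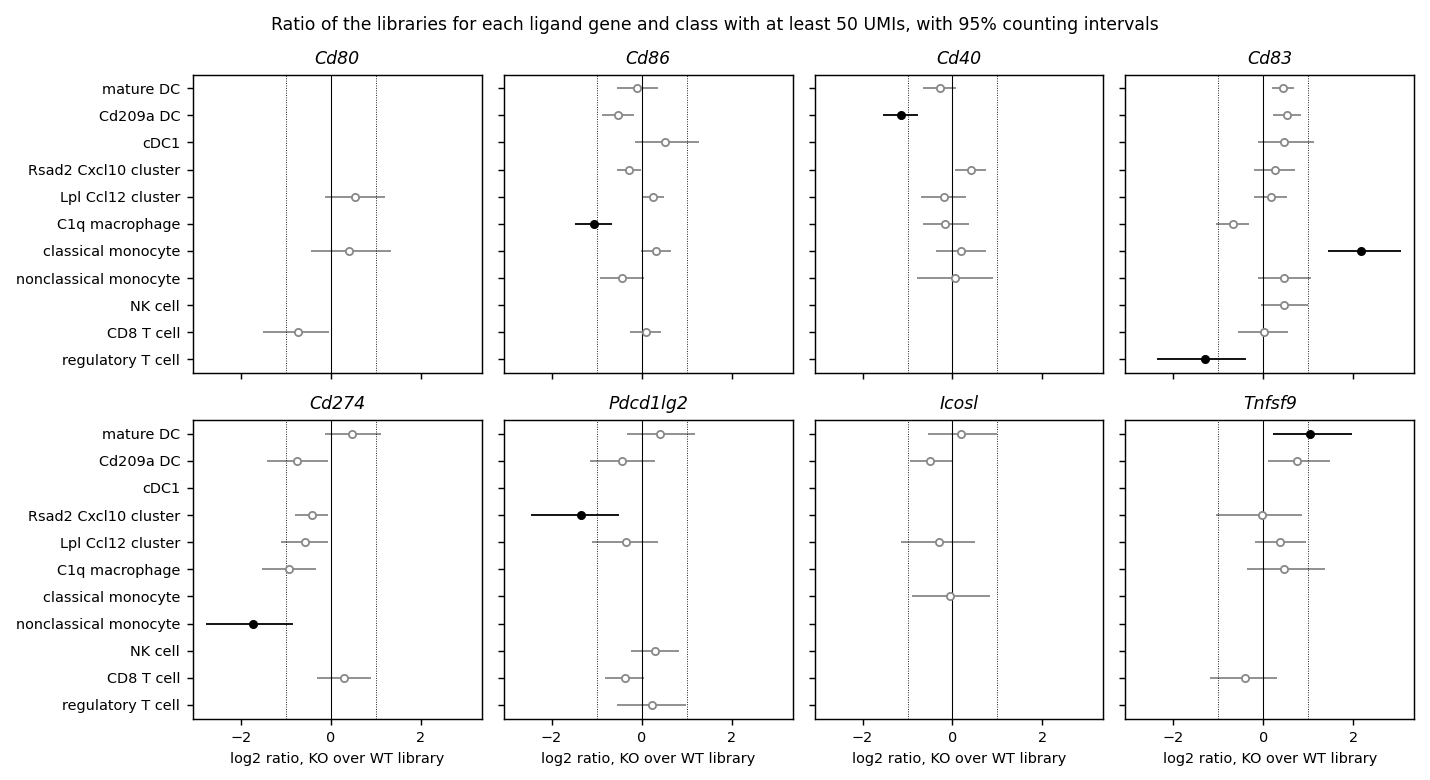
Log2 ratio of KO over WT library, by label (x axis), for each gene and class (y axis) with at least 50 UMIs, with 95% counting intervals. Filled points are at least 2-fold (dotted lines at -1 and 1); *Cd83* is at 2.17 in classical monocytes, and *Pdcd1lg2* is below -1 in the Rsad2 Cxcl10 cluster.

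*Cd83* had the largest ratio of these pairs. In classical monocytes it was at 11.9 (6.82 to 19.4) in the WT library, from 16 UMIs in 127 cells, and 54.9 (44.5 to 67.0) in the KO library, from 97 UMIs in 217 cells. The log2 ratio was 2.17 (1.43 to 3.07), or 4.48-fold, and it was at least 2-fold under all 12 alternatives that gave a ratio (1.28 to 2.76). Both clusters of the class moved the same way, from 3.85 to 28.2 and from 17.1 to 81.8. Cells with a UMI, thinned to 5900 UMIs, were 6.78% and 14.9%. Of 10 genes of the CD40 and NF-κB list tested in the same cells, 2 were past 2-fold, both higher in the KO library, beside 1.70% of all genes tested in this class that were higher. These were *Rel*, an NF-κB subunit, at 29.1 and 74.2, and *Traf1*, at 14.9 and 40.8. Of the other lists, *Tnfrsf9* alone passed, lower in the KO library at 30.6 and 10.8. The 10 neutrophil markers, summed, were at 714 and 140 CPM in these monocytes and the 13 mature DC markers at 55.2 and 65.1, and the part of other cells or free RNA in the result was not tested.

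Other classes showed *Cd83* in both directions. It was higher in the KO library in mature DCs (log2 ratio 0.44, 0.20 to 0.69) and Cd209a DCs (0.52, 0.21 to 0.84). It was lower in C1q macrophages (-0.69, -1.06 to -0.31) and regulatory T cells (-1.30, -2.37 to -0.39). Within Cd209a DCs, *Cd83* was at 75.3 and 156 in the Cd209a Mgl2 sub-cluster and at 171 and 410 in the Cxcl9 Ifit3b sub-cluster, and with both libraries set to the same mix of sub-clusters the log2 ratio rose to 1.14. In regulatory T cells without those that held T cell and myeloid UMIs together, *Cd83* was at 24.5 and 22.6, and the log2 ratio reversed to 0.18 with cells placed by marker score.

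*Cd274* was lower in nonclassical monocytes of the KO library. It was at 62.0 (45.0 to 83.2) in 91 WT cells and 18.3 (9.75 to 31.3) in 94 KO cells, from 44 and 13 UMIs. The log2 ratio was -1.72 (-2.78 to -0.84) and passed 2-fold under all 12 alternatives (-2.95 to -1.68). Without the cells that held T cell and myeloid UMIs together, 89 WT and 90 KO cells were left, with 44 and 5 UMIs at 63.6 and 8.07 CPM. With all cells of the class kept and thinned to 4000 UMIs, 13.4% of 82 WT and 4.76% of 84 KO cells held a UMI. Neutrophil markers, summed, were at 3560 and 1732 CPM in this class. Of these markers, *S100a8* and *S100a9*, summed, were at 113 (94.7 to 134) and 2.44 (0.503 to 7.13) CPM in NK cells. The part of neutrophil RNA in the result was not tested. In mature DCs *Cd274* was not lower, at 0.47 (-0.12 to 1.11), and the log2 ratio was -0.92 (-1.52 to -0.33) in C1q macrophages.

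*Pdcd1lg2* was lower in the Rsad2 Cxcl10 cluster of the KO library. It was at 47.2 and 17.8, a log2 ratio of -1.35 (-2.46 to -0.49). In lymphoid classes the log2 ratios had intervals that held 0, with 0.29 (-0.24 to 0.84) in NK cells, 0.22 (-0.54 to 0.98) in regulatory T cells and -0.36 (-0.80 to 0.06) in CD8 T cells.

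In C1q macrophages, *Cd86* was at 82.7 (68.4 to 99.0) in the WT library and 39.7 (31.7 to 49.0) in the KO library, a log2 ratio of -1.06 (-1.48 to -0.65). The log2 ratio was 0.31 (-0.01 to 0.64) in classical monocytes and 0.255 (0.015 to 0.495) in the Lpl Ccl12 cluster. With cells placed by marker score, the C1q macrophage ratio was -0.47. *Tnfsf9* in mature DCs was at 46.0 and 95.8, from 16 and 45 UMIs, a log2 ratio of 1.03 (0.21 to 1.98) whose alternatives ranged from 0.91 to 1.40. The share of mature DCs with a *Tnfsf9* UMI was 36% and 38.5%, from 9 and 15 positive cells, and 29.2% and 33.3% when thinned to 7500 UMIs. *Cd40* in Cd209a DCs was at 127 and 57.2 CPM, a log2 ratio of -1.15 (-1.54 to -0.77). The ratio was -0.15 with the same mix of sub-clusters, and *Cd40* was at 209 and 191 and at 30.7 and 36.4 within the larger sub-clusters.

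*Cd80* and *Icosl* passed 2-fold in no class where they reached 50 UMIs. For *Cd80* these were classical monocytes, CD8 T cells and the Lpl Ccl12 cluster. For *Icosl* they were mature DCs, Cd209a DCs, classical monocytes and the Lpl Ccl12 cluster. Under the minimum, *Icosl* in cDC1s was at 41.0 and 18.7 (log2 ratio -1.14) and *Cd80* in C1q macrophages at 6.31 and 1.85 (-1.68). *Cd80* in cDC1s (0 and 5 UMIs) and *Icosl* in regulatory T cells (0 and 2) lay the other way. *Cd80* was at 8.59 and 5.11 in CD8 T cells (log2 ratio -0.73, -1.50 to -0.05, and -0.385 with the same mix of clusters in both libraries), where the Cxcr6 Lag3 cluster had 9.18 and 10.6, and at 16.4 and 23.8 in the Lpl Ccl12 cluster (0.53, -0.122 to 1.199). In the Rsad2 Cxcl10 cluster *Cd80* had 45 WT UMIs and 1 KO UMI, 25.9 and 1.62 CPM, which was 46 UMIs over both and under the minimum. *Icosl* was at 69.0 and 49.2 in Cd209a DCs (-0.49, -0.96 to -0.01). In mature DCs, none of the 10 CD40 and NF-κB, 6 interferon-γ, 3 cytokine and 1 receptor genes tested passed 2-fold between the libraries, where the share over all genes was 3.9%.

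Across 12 groups in both libraries (24 points), the pattern of each gene was set beside the 9333 genes with at least 200 UMIs, by Pearson correlation of log2(level + 1). The points share libraries and depth, so the values are a description. *Cd86* was nearest to *Cdkn1a* (r = 0.93), *Sh3bgrl* and *Parp12*, and *Cd40* to *Pgap2* (0.93), *Pira2* and *Vwa5a*. *Cd83* was nearest to *Etv3* (0.90), *Acadm* and *Fnbp1l*, and *Icosl* to *Plekha1* (0.89), *Ccdc88a* and *Nuak2*. *Cd274* was nearest to *Rapgef2* (0.846), *Plgrkt* and *Helz2*. *Pdcd1lg2* was nearest to *Traf1* (0.845), *Mllt6* and *Insl6*, *Tnfsf9* to *Kpna3* (0.816), *Tpm4* and *Got1*, and *Cd80* to *Gstt3* (0.77), *St6galnac6* and *Marcksl1*. Among the 8 genes themselves, *Cd86* and *Cd40* were the most alike (0.84), and *Pdcd1lg2* was hardly like *Cd40* (0.01) or *Cd86* (0.07).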

How the data were processed

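The measurements are scRNAseq of CD45.2+ tumor-infiltrating cells, 1 library per genotype (Chromium 3′ V2, NovaSeq). The submitters' processing notes name Cell Ranger and mm10. The authors counted UMIs, filtered cells (at least 300 UMIs and 100 genes, at most 5% mitochondrial), and deposited a table on a natural log scale (1 plus each cell's UMIs brought to a total of 10000). Dividing the exponential minus 1 by each cell's smallest nonzero value returned whole UMIs for 100% of nonzero values (tolerance 0.01); no count test was run, because neither group has a replicate. The stated filter removed 0 further cells.

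The 8 genes and the 7 pathway lists were chosen with earlier results of these data known, and the list of genes to name was every member, the list genes past 2-fold in a class described, the receptors, and for each member the 3 genes of most similar pattern. Cells were clustered in Seurat 5.3.0 (R 4.3.3) on 13 principal components, with depth regressed out and variable genes picked by mean and dispersion (resolution 0.8, again within DCs, myeloid and T cells), and with members and list genes left out of the variable genes. For each class, markers seen in 10% or more of a cluster's cells at a level over the average cluster were counted; the class with most of its markers so counted gave the name if there were 3 or more. A cluster stayed unnamed when the 10 leading genes, each seen in 25% or more of its cells, went against that class. A cluster with 50% or more of the T cell markers among DCs or myeloid cells, or the converse, was set aside as mixed. CD8 T cell clusters had *Cd8a* over 10 times *Cd4*. These cutoffs were chosen after the data were seen. A further myeloid class and some genes of the lists are not reported here, and the class entered no comparison or ranking. No doublets were removed; cells that held 3 or more CD3 UMIs (*Cd3d*, *Cd3e*, *Cd3g*) together with 5 or more from 6 myeloid genes made up 18.5% (WT) and 10.9% (KO), and an alternative left them out.

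Levels, shares and ratios came from Python 3.11.15 with numpy 2.4.6 and scipy 1.17.1, in code tested on simulated data. Intervals are exact at 95% (Poisson for levels, Clopper-Pearson for shares, conditional binomial for ratios) and cover counting error only, and a count of 0 is given with the limit of 3 counts. Thinning used the 10th percentile of UMIs over the cells in question, rounded down to a multiple of 100. Alternatives covered clustering, cell placement, doublets, weighting, scaling, thinning and cutoffs.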

Additional observations from a re-analysis of the deposited data

Results flagged for a closer look

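The difference between the libraries of 3 genes went in opposite directions in different cell groups, with counting intervals on opposite sides of 0. With 1 library per genotype, none of these differences between groups was tested. *Cd83* had a log2 ratio of -1.30 in regulatory T cells and 2.17 in classical monocytes, 3.46 apart. The regulatory T cell value passed 2-fold under 6 of 12 alternatives and reversed to 0.18 with cells placed by marker score, and without cells holding T cell and myeloid UMIs the levels were 24.5 and 22.6 CPM, so the opposite direction does not hold under every setting. *Cd40* was at -1.15 in Cd209a DCs and 0.41 in the Rsad2 Cxcl10 cluster, 1.56 apart, and the former value was -0.15 at the same mix of sub-clusters. *Cd86* was at -1.06 in C1q macrophages and 0.255 in the Lpl Ccl12 cluster, 1.31 apart. The C1q macrophage value was -0.47 with cells placed by marker score. Without cells holding T cell and myeloid UMIs, *Cd86* in the Lpl Ccl12 cluster was at 134.5 and 147.3 CPM, against 126.9 and 151.4 with them. C1q macrophages without them had 89.6 and 38.4.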

How the results depend on the processing

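Each alternative changed 1 choice. The count of gene and class pairs at least 2-fold higher in the KO library, 2, became 1 at resolution 0.6, with 20 principal components, with the members and pathway genes left in the variable genes, without cells holding T cell and myeloid UMIs and at a minimum of 100 UMIs, and 0 with thinned cells. The count at least 2-fold lower, 4, became 1 with 20 principal components, 2 without depth regression, without cells holding T cell and myeloid UMIs, with thinned cells and at 100 UMIs, and 8 at 1.5-fold. Thinning and a higher minimum leave fewer pairs by construction. Without cells holding T cell and myeloid UMIs, *Tnfsf9* in mature DCs (9 and 39 UMIs, log2 ratio 1.40) and *Cd274* in nonclassical monocytes (44 and 5 UMIs, -2.86) fell under the 50 UMI minimum, while *Cd83* in regulatory T cells was at -0.11. Elsewhere the cause was not tested. Genes at least 2-fold higher in mature DCs than in Cd209a DCs, 5, became 3 with cells placed by marker score and with thinned cells. Pathway gene and class pairs past 2-fold, 11, became 46 at 1.5-fold, 24 at 20 UMIs and 5 at 100 UMIs. *Cd83* in regulatory T cells reversed to 0.18 by marker score. Of the other log2 ratios of single genes under alternatives, 448 stayed within their counting interval and 31 moved outside it. Setting both libraries to the same mix of sub-clusters was added after the data were seen. The unnamed myeloid clusters were not rebuilt under other clusterings. No paired analysis was possible because each genotype has 1 library. Mature DCs held 347689 and 469710 UMIs, and cDC1s 341685 and 909745, which sets the counting intervals of the DC values.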
